A study of Xenopus tropicalis with 4 samples.

Results

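Ionocytes are the acid-base and salt-transporting cells of the Xenopus larval epidermis. The 6 genes described here are the regulators foxi1 and dmrt2 and the transport genes slc26a4, slc4a1, atp6v1b1 and atp6v0d2. They were chosen by symbol, and 6 of the 34178 gene identifiers in the deposited counts carry one of these names. RNA-seq was performed on X. tropicalis animal caps (ACs), explants of the prospective ectoderm that form an epidermis in culture, collected at NF16, a neurula stage. The embryos had received morpholinos against both suv4-20h1 and suv4-20h2 (H1H2Mo, 2 libraries) or a control morpholino (CoMo, 2 libraries). Both conditions thus carry an antisense oligonucleotide, each library pools many explants, and the injections were radial and thus not aimed at a single cell type. SUV4-20H1 and SUV4-20H2 are the enzymes that convert monomethylated lysine 20 of histone H4 to its di- and trimethylated states.

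Ionocytes arise in the inner ectodermal layer and intercalate between the goblet cells of the surface, as multiciliated cells (MCCs) do. A forkhead factor of the Foxi family is required for their formation, and in the mammalian kidney Foxi1 drives the related intercalated cells. Transport rests on the vacuolar proton pump, the V-ATPase, a rotary machine with a cytosolic V1 part that splits ATP and a membrane V0 part that conducts protons, and on exchangers that move bicarbonate against chloride. Cells with the pump on the apical side and Slc4a1 (AE1) on the basal side secrete acid, while cells with the reverse orientation carry Slc26a4 (pendrin) apically and secrete base.

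The libraries held between 17054150 and 47407319 read pairs on genes, and the 6 genes had between 181 and 5269 read pairs in a library. Because the morpholinos block translation, the transcripts of their targets need not fall. suv420h1 had 89.33 and 82.44 CPM in H1H2Mo against 109.2 and 123.2 CPM in CoMo, and kmt5c, which is suv4-20h2, had 147.4 and 171.5 CPM in H1H2Mo against 47.7 and 58.2 CPM in CoMo. CPM are read pairs scaled to a common library size after TMM normalization. The epidermal genes epcam and cdh1 were present in every library at 765.6 CPM or more. Of the same list of epidermal and basal cell genes, krt12 and tp63 were lower in H1H2Mo. krt12 had 17.79 and 28.22 CPM in H1H2Mo, against 239.2 and 138.2 CPM in CoMo. tp63 had 67.03 and 125 CPM in H1H2Mo, against 278.7 and 492.2 CPM in CoMo. A gene was called where its p, adjusted by the method of Benjamini and Hochberg (BH) over all genes tested, was under 0.05 in the quasi-likelihood test of edgeR. By this measure 16.5% of the 19372 genes tested were called, 10.7% lower and 5.83% higher in H1H2Mo. Of the morpholino targets, kmt5c was called higher (log2 fold change 1.59, edgeR quasi-likelihood test, BH-adjusted p = 0.00549). suv420h1 was not called (log2 fold change -0.44, edgeR quasi-likelihood test, BH-adjusted p = 0.393). The deposited identifiers carry no names, and symbols were taken from the annotation beside the authors' own lists of genes. The portion of their list for these libraries that was at hand holds 1998 genes with a small p, and 98.9% of the genes it names were called here, against 12.6% (6.33% lower, 6.26% higher) of the genes named only in lists from other injections and 39.4% of all tested genes with a symbol. All 4 transport genes are named in that portion, slc4a1 nowhere else, while foxi1 and dmrt2 are named only in the other lists. Some of these other lists compare ACs given the same morpholinos plus mRNA for the histone demethylase PHF8 with ACs given that mRNA alone. dmrt2 is named only in such a list. The share of 12.6% is thus not free of selection by these morpholinos. All 6 genes were among those tested.

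Of the 6 genes, foxi1 did not pass the test, dmrt2 was higher in H1H2Mo, and the 4 transport genes were lower by 2.64-fold to 3.06-fold. foxi1 (gene7947, chromosome 3 of the assembly used by the authors) encodes a forkhead factor. It had 35.34 and 63.3 CPM in the H1H2Mo libraries, against 77.86 and 52.76 CPM in the CoMo libraries. The conditions overlapped, since the higher H1H2Mo library lay between the CoMo libraries. The log2 fold change was -0.41 (SE 0.37, edgeR quasi-likelihood test, BH-adjusted p = 0.508), with a 95% interval from -1.20 to 0.39. Without H1H2Mo replicate 2 the log2 fold change was -0.88 and without H1H2Mo replicate 1 it was -0.035, and the adjusted p was at least 0.0928 with any library left out.

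dmrt2 (gene213, chromosome 1) encodes a transcription factor with a DM domain that is used in somite and left-right patterning in fish. It had 30.76 and 145.4 CPM in H1H2Mo, against 18.28 and 28.58 CPM in CoMo. Both H1H2Mo libraries were above both CoMo libraries, but H1H2Mo replicate 1 lay just above CoMo replicate 2, and the difference came mainly from H1H2Mo replicate 2. Higher values without overlap were found for 28.8% of all genes tested. The log2 fold change was 1.91 (SE 0.56, 95% interval from 0.69 to 3.12, edgeR quasi-likelihood test, BH-adjusted p = 0.0345). Without H1H2Mo replicate 2 it was 0.40 (adjusted p = 0.494), and the call was also lost without CoMo replicate 1 (adjusted p = 0.35) and without CoMo replicate 2 (adjusted p = 0.199).

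**Figure D1:**
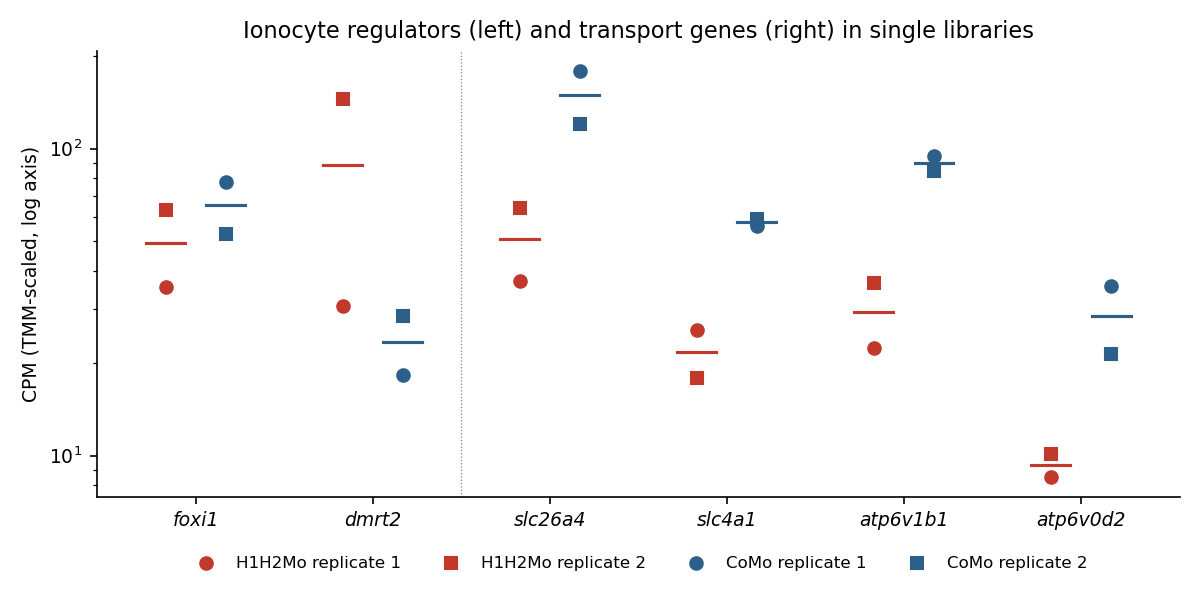
CPM of the 6 genes in single libraries on a log axis, with H1H2Mo in red to the left of CoMo in blue, circles for replicate 1, squares for replicate 2 and a bar at the mean of each condition. The conditions overlap for foxi1, H1H2Mo replicate 2 of dmrt2 stands at 145.4 CPM, and for the 4 transport genes both H1H2Mo libraries lie below both CoMo libraries.

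Among the exchangers, slc26a4 (gene162, chromosome 3), which encodes pendrin, had 36.96 and 64.2 CPM in H1H2Mo, against 178.9 and 120 CPM in CoMo. The H1H2Mo values were all below the CoMo values, and the log2 fold change was -1.56 (SE 0.38, edgeR quasi-likelihood test, BH-adjusted p = 0.0128), a 2.96-fold lower level. RefSeq lists 3 numbered copies of this gene, slc26a4.1 to slc26a4.3, on chromosome 3. The name slc26a4 is a synonym of slc26a4.3 there, and reads shared by the copies, which the authors' counting leaves out, could not be assigned.

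slc4a1 (gene22568, chromosome 10) encodes the anion exchanger AE1, which is also the band 3 protein of red blood cells. It had 25.72 and 17.85 CPM in H1H2Mo, against 55.81 and 59.13 CPM in CoMo. The CoMo libraries were close to each other and well above both H1H2Mo libraries. The log2 fold change was -1.40 (SE 0.34, edgeR quasi-likelihood test, BH-adjusted p = 0.0131), a 2.64-fold lower level. Unlike slc26a4, atp6v1b1 and atp6v0d2, slc4a1 was lower in H1H2Mo replicate 2 than in H1H2Mo replicate 1.

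The pump subunits behaved in the same way. atp6v1b1 (gene29443, chromosome 1) encodes the B1 subunit of V1, the form of the nucleotide-binding B subunit that mammals use in intercalated cells and in the inner ear. It had 22.33 and 36.53 CPM in H1H2Mo, against 94.61 and 84.79 CPM in CoMo. The lowest CoMo library was more than double the highest H1H2Mo library, and the log2 fold change was -1.61 (SE 0.35, edgeR quasi-likelihood test, BH-adjusted p = 0.00724). atp6v0d2 (gene28072, chromosome 6) encodes the d2 subunit of V0, part of the stalk that couples the rotor to the V1 motor. It had 8.54 and 10.1 CPM in H1H2Mo, against 35.64 and 21.4 CPM in CoMo. Again the conditions did not overlap, and the log2 fold change was -1.61 (SE 0.38, edgeR quasi-likelihood test, BH-adjusted p = 0.0121).

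The log2 fold changes of the 4 transport genes lay in a narrow range, from -1.61 to -1.40, with a median of -1.59 beside a median of 0.047 over all genes tested. All 4 were called lower and all 4 had conditions that did not overlap, which 30.7% of all genes tested did in that direction. Each of the 4 is named in the list of genes with a small p in these libraries, of which 98.9% were called. Only slc4a1 owes its symbol to that list alone, but atp6v1b1 is otherwise named only in a list that also compares these morpholinos. The 4 were also chosen with earlier results of these data known, so that count is not independent of these data. Leaving out a CoMo library ended all 4 calls. The log2 fold changes ranged from -1.51 to -1.18 and the adjusted p from 0.133 to 0.28 without CoMo replicate 1, and from -1.93 to -1.34 and from 0.0611 to 0.145 without CoMo replicate 2. The number of genes called among all genes then dropped to 542 and 879. With either H1H2Mo library left out, all 4 genes stayed past the threshold. In RNA from whole ACs, fewer ionocytes and less transcript per ionocyte cannot be told apart.

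The other V-ATPase subunits with a symbol served as a background for the pump. Of 12 further subunits, 1 was called lower and 0 higher by both edgeR and DESeq2. At an unadjusted p under 0.05 in edgeR the counts were 2 lower and 0 higher. Of all genes tested, edgeR called 10.7% lower and 5.83% higher. The median log2 fold change of the 12 was -0.41, beside 0.047 over all genes tested, and 10 of the 12 were negative. Conditions did not overlap for 7 in the lower and 2 in the higher direction, against 30.7% and 28.8% of all genes tested. The summed level of the 12 was 544.4 and 579.8 CPM in H1H2Mo, against 762.9 and 676.9 CPM in CoMo. The subunit called was atp6v1a (gene25393), which encodes the ATP-splitting A subunit. It had 2.77 and 7.81 CPM in H1H2Mo, against 30.22 and 23.91 CPM in CoMo, a log2 fold change of -2.37 (SE 0.48, edgeR quasi-likelihood test, BH-adjusted p = 0.00496). Its identifier lies on an unplaced scaffold of the authors' assembly, whereas RefSeq places atp6v1a on chromosome 2, and whether the counts cover the whole gene was not tested. The identifiers of atp6v0a1 and atp6v1e1, which were not called, also lie on scaffolds. atp6v1a is also the only one of the 12 that is named in the list of genes with a small p. Of the other 11, 0 were called by edgeR or DESeq2 and 1 had an unadjusted p under 0.05, where 12.6% of all genes named outside that list were called. These counts depended on single libraries. Without H1H2Mo replicate 2, 4 of the 12 were called lower, namely atp6v1a, atp6v0a4 (log2 fold change -1.20), atp6v0e1 (-1.02) and atp6v1c2 (-1.73), and without CoMo replicate 1 or CoMo replicate 2 the count was 0.

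Some of these 11 subunits are, like B1 and d2, tissue-restricted forms in mammals, and others are used by every cell. Among the restricted forms, atp6v0a4, whose product carries protons through V0 in intercalated cells, had 15.52 and 27.55 CPM in H1H2Mo, against 37.1 and 34.75 CPM in CoMo. The conditions did not overlap, but its log2 fold change of -0.74 (95% interval from -1.53 to 0.048) did not pass the test. The restricted forms atp6v1c2 and atp6v1g3 had log2 fold changes of -0.78 and -0.54, which did not pass either. H1H2Mo replicate 2, with 47.07 CPM of atp6v1c2, lay between the CoMo libraries with 67.26 and 41.01 CPM, and up to 43.3% of the stranded reads at atp6v1c2 in a library lay on the opposite strand. The widely used subunits among these 11 ran from -0.87 for atp6v0e1 to 0.36 for atp6v1e1. atp6v1a, with a log2 fold change of -2.37, was not placed in either group and is outside this range. atp6v0c, the proteolipid of the rotor ring, had 94.98 and 81.71 CPM in H1H2Mo, against 71.4 and 77.9 CPM in CoMo, and a log2 fold change of 0.24 with a 95% interval from -0.43 to 0.92. The upper ends of these intervals reach 0 or above for 10 of the 11 subunits. For atp6v0e1 the interval lay below 0, from -1.57 to -0.18 (edgeR quasi-likelihood test, BH-adjusted p = 0.0853). The subunits were not tested against each other.

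**Figure D2:**
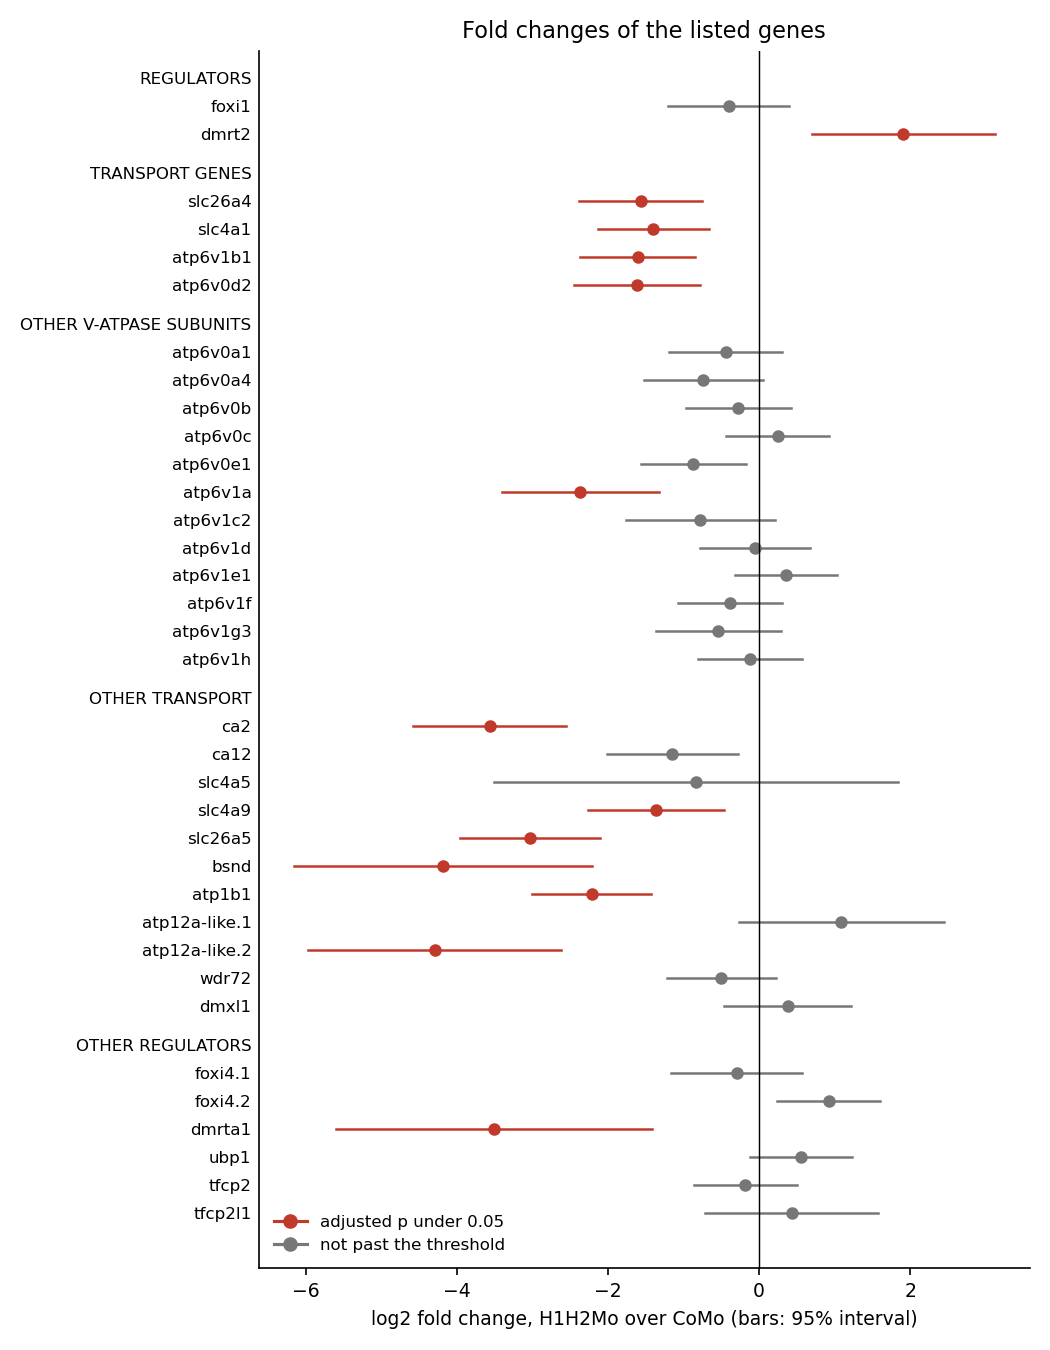
Log2 fold changes of H1H2Mo over CoMo with 95% intervals for the 6 genes and for the other listed genes that were tested, in red where the adjusted p was under 0.05 and in grey otherwise. The 4 transport genes lie between -1.61 and -1.40, and 11 of the 12 other V-ATPase subunits lie between -0.87 and 0.36 in grey. The 4 transport genes are named in the list of genes with a small p in these libraries, and these 11 subunits are not.

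Further transport and acid-base genes were examined from a list of 14 genes. Not all of them, slc26a5 and atp1b1 among them, are particular to ionocytes or renal intercalated cells. Of the 11 tested, 6 were called lower and 0 higher by both edgeR and DESeq2 (7 and 0 at an unadjusted p under 0.05), with a median log2 fold change of -1.36, where 10.7% of all genes tested were called lower and 5.83% higher. With no filter on low counts atp12a-like.1 was called higher, and with unstranded counts kcnj10 was, through reads on the strand opposite to the gene. The genes slc26a2, slc26a10 and kcnj10 had too few reverse-strand reads to be tested, and slc4a5, with at most 8 read pairs in a library, was not called. Without CoMo replicate 1 the count called lower was 2, and without CoMo replicate 2 it was 3. Of the 7 that are named only outside the list of genes with a small p, 2 were called lower, slc4a9 and atp12a-like.2. ca2, the cytosolic carbonic anhydrase that supplies protons and bicarbonate, had 8.65 and 17.07 CPM in H1H2Mo, against 207 and 96.59 CPM in CoMo, a log2 fold change of -3.57 (SE 0.47, edgeR quasi-likelihood test, BH-adjusted p = 0.00033). Its call was kept with each of the 4 libraries left out. slc4a9, which encodes the anion exchanger AE4 of base-secreting cells in the mouse kidney, had 11.27 and 8.09 CPM in H1H2Mo, against 33.39 and 16.67 CPM in CoMo. Its log2 fold change of -1.36 (edgeR quasi-likelihood test, BH-adjusted p = 0.0412) was close to that of slc4a1. In the edgeR test, upper-quartile scaling gave a BH-adjusted p of 0.0564 and the filterByExpr filter on low counts one of 0.0617. The call of slc4a9 was also lost without CoMo replicate 1 (log2 fold change -0.76), CoMo replicate 2 (-1.77) or H1H2Mo replicate 2 (-1.14).

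bsnd, which encodes barttin, an accessory subunit in chloride transport, had 1 and 6 read pairs in H1H2Mo, against 46 and 152 in CoMo (log2 fold change -4.18, standard error 0.91). The call of bsnd was lost without CoMo replicate 1 (log2 fold change -4.298) or CoMo replicate 2 (-3.985). atp1b1, the beta subunit of the sodium pump, had 40.16 and 35.14 CPM in H1H2Mo, against 218.1 and 132 CPM in CoMo, and fell by 2.22 on the log2 scale. Its call was lost without CoMo replicate 1 (log2 fold change -1.788). slc26a5, the homolog of the motor protein prestin of mammalian outer hair cells, fell by 3.03, with 2.59 and 1.90 CPM in H1H2Mo, against 17 and 19.81 CPM in CoMo.

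The list holds a pair of proton-potassium pump genes, atp12a-like.1 and atp12a-like.2, of which atp12a-like.2 was called lower. It had 30.18 and 3.12 CPM in H1H2Mo, against 414.4 and 243.4 CPM in CoMo, and fell by 4.29 on the log2 scale. The call of atp12a-like.2 was lost without CoMo replicate 1 (log2 fold change -3.827) or CoMo replicate 2 (-4.603). atp12a-like.1 had 1569 and 275.2 CPM in H1H2Mo, against 295.5 and 573.9 CPM in CoMo. H1H2Mo replicate 1 stood far above the other libraries for this gene and H1H2Mo replicate 2 was the lowest of the 4, so that its log2 fold change of 1.09 did not pass the test and was -0.65 without H1H2Mo replicate 1. Without H1H2Mo replicate 2 it was 1.86 and atp12a-like.1 was called higher. The genes wdr72 and dmxl1, whose products are linked to V-ATPase assembly, had log2 fold changes of -0.50 and 0.38, which did not pass. ca12, a membrane-bound carbonic anhydrase, had 12.39 and 17.62 CPM in H1H2Mo, against 44.41 and 22.29 CPM in CoMo, a log2 fold change of -1.15 and a BH-adjusted p of 0.0703 in the edgeR test.

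Other regulators were examined from a list of 6 forkhead, DM domain and CP2 family genes. Of these, 1 was called lower and 0 higher by edgeR, and 1 lower and 1 higher by DESeq2 as well as at an unadjusted p under 0.05, with a median log2 fold change of 0.12. All 6 are named only outside the list of genes with a small p. Of all genes so named, edgeR called 6.33% lower and 6.26% higher. foxi4.1 had 32.49 and 73.4 CPM in H1H2Mo, against 77.19 and 53.08 CPM in CoMo, and its log2 fold change of -0.30 did not pass the test. As for foxi1, H1H2Mo replicate 1 was the lowest library and the conditions overlapped. foxi4.2, also on chromosome 1, had 65.38 and 59.07 CPM in H1H2Mo, against 32.72 and 33.15 CPM in CoMo. The replicates of foxi4.2 were close to each other, and its log2 fold change was 0.92 (SE 0.31, edgeR quasi-likelihood test, BH-adjusted p = 0.065), while DESeq2 gave an adjusted p of 0.0401. foxi4.1 and foxi4.2 are paralogs, and reads that map to both count for neither.

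The CP2 family gene ubp1, which is expressed in Xenopus ionocytes, had 72.26 and 82.83 CPM in H1H2Mo, against 52.88 and 52.35 CPM in CoMo. Its log2 fold change of 0.56 (95% interval from -0.12 to 1.23) did not pass the test. tfcp2 had a log2 fold change of -0.18, and tfcp2l1, a regulator of intercalated cells in the mouse kidney, one of 0.43. The gene called was dmrta1, which had 5 and 1 read pairs in H1H2Mo, against 30 and 50 in CoMo, a log2 fold change of -3.51 (SE 0.96). It moved opposite to dmrt2, and its call was lost without CoMo replicate 1 (-3.12) or CoMo replicate 2 (-3.79).

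A ratio of read pairs within a library does not depend on how the library is scaled. slc26a4 had 1.05 and 1.01 read pairs per foxi1 read pair in H1H2Mo, against 2.3 and 2.27 in CoMo. The replicates were close although foxi1 and slc26a4 each varied between them. atp6v1b1 had 0.632 and 0.577 per foxi1 read pair in H1H2Mo, against 1.22 and 1.61 in CoMo. For atp6v0d2 the ratio was 0.242 and 0.159 in H1H2Mo, against 0.458 and 0.406 in CoMo. These 3 ratios were lower in both H1H2Mo libraries than in both CoMo libraries. slc4a1 was different, with 0.728 and 0.282 in H1H2Mo, against 0.717 and 1.12 in CoMo, so that H1H2Mo replicate 1 did not stand below CoMo replicate 1. For dmrt2 the ratio was 0.871 and 2.3 in H1H2Mo, against 0.235 and 0.542 in CoMo, higher in both H1H2Mo libraries. CPM without overlap were lower for 30.7% and higher for 28.8% of all genes tested, and no such share was computed for ratios. With 2 libraries against 2, an exact permutation test cannot give a two-sided p below 0.333, and these ratios were therefore not tested.

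**Figure D3:**
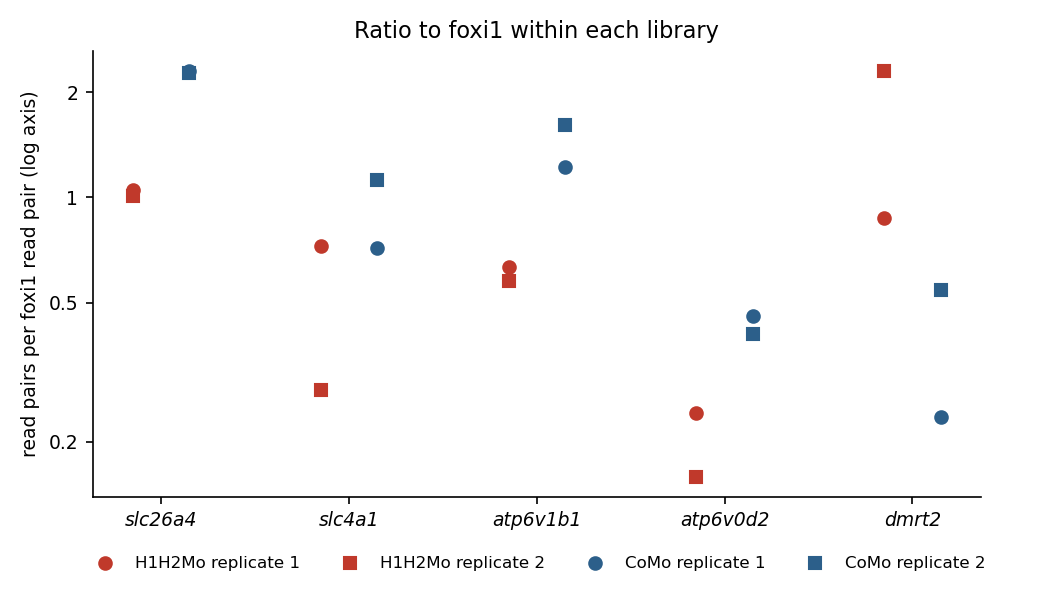
Read pairs of each gene divided by those of foxi1 in the same library, on a log axis, with H1H2Mo in red to the left of CoMo in blue. The ratio of slc26a4 is 1.05 and 1.01 in H1H2Mo and 2.3 and 2.27 in CoMo, the ratios of atp6v1b1 and atp6v0d2 are also lower in H1H2Mo, that of slc4a1 overlaps, and that of dmrt2 is higher in H1H2Mo.

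The genes whose profiles were most like those of the 6 genes were taken from 5451 other genes with a symbol and a mean of at least 50 counts. Likeness was the root mean square difference of the centred log2 CPM over the 4 libraries. The closest genes were LOC108644779 (0.045) and nasp (0.054) for foxi1, ttc30a (0.023) and meig1 (0.056) for slc26a4, capn9 (0.034) and fnip1 (0.04) for slc4a1, zc2hc1a (0.031) and cpamd8 (0.033) for atp6v1b1, and fbn1 (0.07) and LOC100496892 (0.079) for atp6v0d2. For dmrt2 they were ptgr1.2 (0.057) and, at a larger distance, mci-like (0.281), the gene for the MCC regulator Multicilin. mci-like had 93.51 and 285.1 CPM in H1H2Mo, against 58.73 and 84.11 CPM in CoMo, so that it shared the high value in H1H2Mo replicate 2. With 4 libraries such likeness is a description only.

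Markers of the other epidermal cell types were examined in the same comparison, where 10.7% of all genes tested were called lower and 5.83% higher. Of 14 MCC genes, 10 were called lower and 0 higher by edgeR, where DESeq2 called 10 lower and 1 higher and 11 and 2 had an unadjusted p under 0.05. The 4 that edgeR did not call were foxj1 (log2 fold change -0.877), rfx2 (-0.402), mci-like (1.405) and cdc20b (0.835). Thus the list holds genes that went in the opposite direction to its median. The summed level below is that of all 14 genes. Their summed level was 1845 and 2516 CPM in H1H2Mo, against 5377 and 6461 CPM in CoMo. tubb4b alone held 1107 and 1185 CPM of this in H1H2Mo, against 3198 and 4368 CPM in CoMo. All 6 genes of the small secretory cells were called lower, with sums of 283 and 179.3 CPM in H1H2Mo, against 2019 and 1716 CPM in CoMo. chga alone held 1375 and 990.1 CPM of the CoMo sums. scg3 was at 0 read pairs in H1H2Mo replicate 2, and no other marker was at 0 in any library. Of the 3 goblet cell genes, itln1 and itln2 were called lower and otog was not called. The sum over goblet cell genes was 2457 and 701.4 CPM in H1H2Mo, against 1835 and 1457 CPM in CoMo. otog alone held 2268 and 638.9 CPM of this in H1H2Mo, against 874 and 1011 CPM in CoMo. Of the 4 epidermal and basal cell genes, krt12 and tp63 were called lower and epcam and cdh1 were not called, with sums of 2951 and 2075 CPM in H1H2Mo, against 3032 and 3901 CPM in CoMo. As medians, the log2 fold changes came to -1.96 for the MCC genes, -4.66 for the small secretory cell genes, -2.24 for the goblet cell genes and -1.42 for the epidermal and basal cell genes, beside -1.59 for the 4 ionocyte transport genes. Of the 14 MCC genes 9, and all 6 genes of the small secretory cells, are named in the list of genes with a small p. So are 2 of the 3 goblet cell genes (itln1 and itln2) and 2 of the 4 epidermal and basal cell genes (krt12 and tp63). Of the genes in that list 98.9% were called. Of the markers outside it, edgeR called lower 1 of 5 MCC genes, 0 of 1 goblet cell genes and 0 of 2 epidermal and basal cell genes. Of all genes named only outside that list, 6.33% were called lower. The lists were chosen with earlier results of these data known, so these counts and medians too are not independent of these data. The part of these other cell types in the lower transport genes was not tested.

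**Figure D4:**
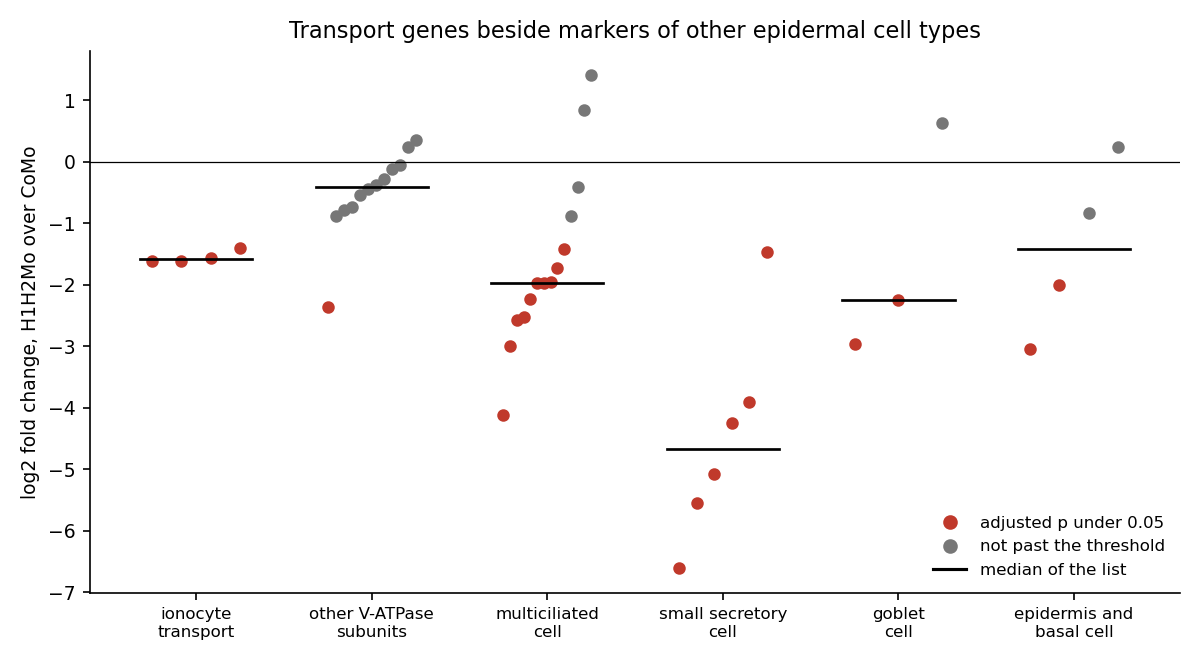
Log2 fold changes of H1H2Mo over CoMo for each tested gene of 6 lists, in red where the adjusted p was under 0.05 and in grey otherwise, with a bar at the median of each list. The median of the ionocyte transport genes (-1.59) lies between those of the epidermal and basal cell genes (-1.42) and the MCC genes (-1.96), and that of the other V-ATPase subunits is -0.41.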

How the data were processed

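RNA-seq of 4 libraries of X. tropicalis ACs was used. The authors mapped the reads with STAR 2.7.1a to the Xenbase assembly and deposited raw counts per gene, unstranded and for both strands separately (3 columns). Counts on the reverse strand were taken, since at least 97.49% of stranded reads lay on that strand, and 0 further per-sample columns were left aside. Reads mapping to several places (6.82% to 8.11% of read pairs) are not in the gene counts.

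A gene entered the test when 75% of the libraries had 1 read or more, and the test was made with edgeR 4.0.16 in R 4.3.3, with TMM normalization, the quasi-likelihood test and Benjamini-Hochberg adjustment over all genes tested. Standard errors (SE) follow from each F statistic, and 95% intervals from the degrees of freedom of the fit. Alternatives were DESeq2 1.42.0, RLE and upper-quartile scaling, other filters, unstranded counts, a replicate block and leaving out each library. Fold changes and p-values printed in the lists of the authors were not used, only symbols and chromosomes. A prior count of 2 was added for log2 CPM.

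The study describes its RNA-seq replicates as biological and reports more of them per stage and condition than the 2 used here. The labels number these libraries without saying which embryos they came from, so the p-values measure the spread between these samples. Depth and having 2 libraries per condition both limit the precision. The members and lists were chosen with earlier results of these data known. The genes named are the 6 genes, the morpholino targets, genes of the lists and, for each of the 6, the 2 genes with the most similar profile. Grouping the V-ATPase subunits by use in mammals was done after their values were seen. RefSeq names (UCB_Xtro_10.0) matched 5 of the 6 genes by symbol and 1 by synonym, and gave no sequences here. A further gene that was examined is not reported here.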

Additional observations from a re-analysis of the deposited data

Results flagged for a closer look

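kcnj10, a potassium channel gene on the transport list, had 2 reverse-strand read pairs in all and was not tested, but it had 512 and 28 read pairs on the other strand in H1H2Mo, against 17 and 53 in CoMo. These counts, left out of the reverse-strand comparisons above, equal 18.4 and 1.56 CPM in H1H2Mo, against 1.04 and 1.21 CPM in CoMo. In the edgeR test on unstranded counts, which hold these reads, the log2 fold change of kcnj10 was 3.09 with a BH-adjusted p of 0.0179. H1H2Mo replicate 1 held most of these reads, and H1H2Mo replicate 2 lay near the CoMo libraries. Of the stranded reads at kcnj10, 99.67% lay opposite to its annotated strand, and whether they come from its transcript was not tested. For slc26a10 (2.63 CPM) and slc4a5 (1.37 CPM), reads on the other strand were also highest in H1H2Mo replicate 1. In that library 19.17% of read pairs lay on no gene of the counted strand, against 13.6% to 15.75% in the others.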

How the results depend on the processing

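The direction of the 6 genes was kept in every alternative run. Each of them had at least 181 read pairs in a library. At an adjusted p under 0.01, 1 of the 4 transport genes (atp6v1b1) was called lower and 0 of the regulators higher, since the log2 fold changes of 1.91 for dmrt2, -1.56 for slc26a4, -1.40 for slc4a1 and -1.61 for atp6v0d2 did not pass; 1543 of all genes did, 1171 lower and 372 higher. With filterByExpr, dmrt2 had 1.93 and an adjusted p of 0.0599, so 0 regulators were called. The deviations of samples with the same replicate number had a weak negative correlation (-0.207 over 12536 genes). That value cannot settle whether these samples are paired, and the labels do not say so. The replicate number was therefore not taken as a pairing. With it as a replicate block the log2 fold changes were -0.44 for foxi1, 1.56 for dmrt2, -1.59 for slc26a4, -1.42 for slc4a1, -1.65 for atp6v1b1 and -1.57 for atp6v0d2, with no call changed. Crossed pairs, chosen after seeing the data, gave 4843 genes called, 2013 of them higher.

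With each library left out, the log2 fold changes ranged from -0.88 to -0.035 for foxi1, from 0.40 to 2.64 for dmrt2, from -2.01 to -1.21 for slc26a4, from -1.68 to -1.15 for slc4a1, from -1.999 to -1.29 for atp6v1b1 and from -1.93 to -1.18 for atp6v0d2. The number called lower among the 4 transport genes ranged from 0 to 4 and the number called higher among the regulators from 0 to 1. Among all genes 542 to 3978 were called, 499 to 2268 lower and 43 to 1710 higher. The lone sample of a condition was then assumed to vary like the other condition. Among the other genes, some directions turned. Without a library the log2 fold changes ranged from -0.65 to 1.86 for atp12a-like.1, from -0.16 to 0.79 for dmxl1, from -0.996 to 0.18 for foxi4.1, from -0.025 to 1.21 for tfcp2l1, from -0.55 to 1.27 for otog, from -0.098 to 0.56 for epcam, from -0.31 to 0.29 for atp6v1d and from -0.29 to 0.039 for atp6v1h. slc4a5 had 0.69 with unstranded counts and atp6v1d 0.026 with upper-quartile scaling, which moved the median of all genes to 0.13. The cause was not tested.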
